A study of Homo sapiens with 4 samples.

Results

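The glutamate transporters of the SLC1 family and the enzymes that join and split glutamine were compared between 2 human prostate cancer cell lines. The members were SLC1A1, SLC1A2, SLC1A3, SLC1A4, SLC1A5, GLS2, GLUL and GLUD1, a list put together with earlier results of these arrays known. Each gene was represented by a probe set annotated to that gene alone, and where a gene had several, the probe set was chosen by the highest mean over the 4 arrays. By this rule 6 of the 8 members were found, among 18417 genes with such a probe set and 33297 probe sets in all. GLS2 and GLUD1 were not analysed here. PC-3 is the parental line, first grown from a patient's prostate cancer in bone, and is labelled as poorly metastatic. PC-3-BM, named PC3-BM in the study and labelled as highly metastatic, was recovered from bone lesions of male athymic nude mice after repeated intracardiac injection and is described as a clone, so it stands for 1 selected derivative. Both lines carried luciferase and green fluorescent protein, and the study's methods describe culture of both in medium supplemented with L-glutamine. The labels speak of growth in mice, so how the cells were held before RNA was taken is not settled. Each line had 2 arrays, with no statement on separate cultures, and the p-values therefore measure only the spread between arrays, which may be technical.

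Glutamate is taken up against its gradient by the excitatory amino acid transporters, which couple it to sodium and potassium. SLC1A3 (EAAT1, GLAST) and SLC1A2 (EAAT2, GLT-1) are best known from astrocytes, and SLC1A1 (EAAT3) from neurons and epithelia. SLC1A4 (ASCT1) and SLC1A5 (ASCT2) belong to the same family and exchange neutral amino acids, with SLC1A5 as a main entry route for glutamine in many tumour cells. Inside the cell, glutaminases such as GLS2 split glutamine into glutamate and ammonia, glutamate dehydrogenase (GLUD1) passes glutamate to the citric acid cycle, and glutamine synthetase (GLUL) makes glutamine from glutamate. PC-3 cells are known to lack androgen receptor signalling.

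SLC1A3 was far lower in PC-3-BM than in PC-3, and the exchangers SLC1A4 and SLC1A5 were moderately higher. SLC1A1, SLC1A2 and GLUL showed small differences that did not pass the test. Rose and fell are used below of genes with a limma adjusted p below 0.05, adjusted over all 33297 probe sets. Of the 6 measured members 2 rose and 1 fell. Over all probe sets 23.2% passed the same test, 11.6% higher and 11.6% lower, and over the chosen probe sets of all named genes 14.8% were higher and 14.8% lower. The median difference of the members was 0.12 on the log2 scale, against -0.02 over all probe sets. No test of the list as a whole was made, and the results are those of the single genes.

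**Figure D1:**
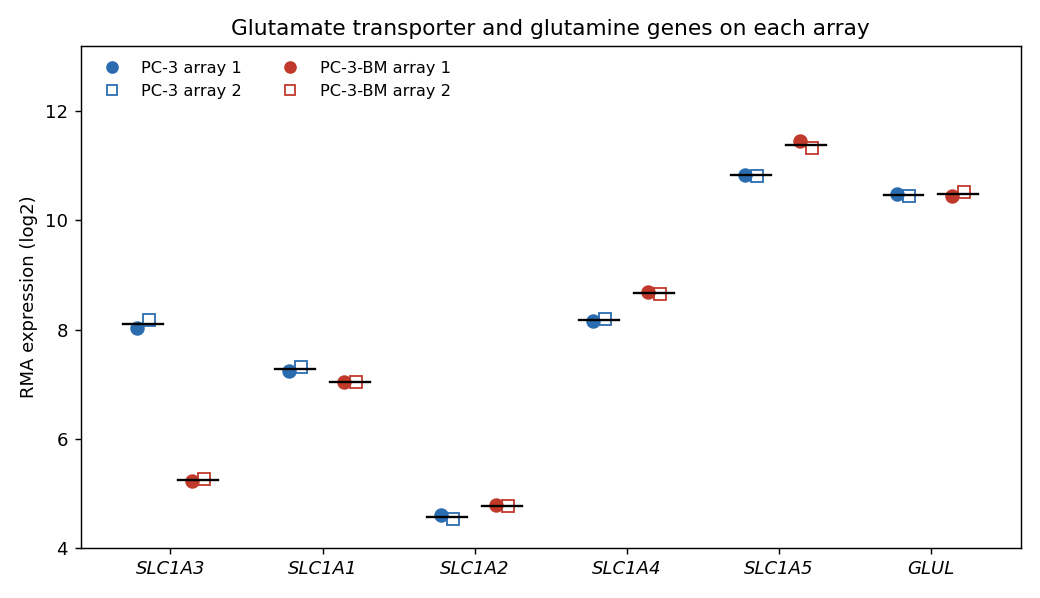
RMA expression (log2, vertical axis) of the 6 measured genes (horizontal axis) on each of the 4 arrays, with PC-3 in blue, PC-3-BM in red, filled circles for array 1, open squares for array 2 and black bars for the mean of each line. SLC1A3 dropped from a mean of 8.10 to 5.24, SLC1A4 and SLC1A5 were higher on both PC-3-BM arrays, and the GLUL arrays overlapped.

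SLC1A3, the gene of the glial glutamate transporter, had log2 values of 8.03 and 8.17 on the PC-3 arrays and of 5.23 and 5.25 on the PC-3-BM arrays. The lines did not overlap, and the gap between them was many times the spread within either line. The mean went from 8.10 ± 0.09 to 5.24 ± 0.02 (SD, n = 2), and SLC1A3 fell by 2.86 on the log2 scale (SE 0.08, 95% interval -3.07 to -2.66, limma, adjusted p = 0.00087), a 7.27-fold lower signal. Among all probe sets it was the one with rank 23 by absolute difference and rank 10 among those lower in PC-3-BM. It was also the only one of the 6 measured members past the stricter limits of the study (log2 change above 2 at an adjusted p below 0.001), which 0.0511% of all probe sets, 17 in number, passed. That count depended strongly on the fit, with 83 probe sets past these limits when only probe sets of 1 symbol were tested, where SLC1A3 had a limma adjusted p of 4.81e-06, and 0 with array number as a block, where it had 0.00343. Its call held without any 1 of the 4 arrays, with the difference between -2.93 and -2.80. The PC-3-BM level lay close to the lower quartile of all values (5.02), where signal and background are hard to separate, so the size of the fall is uncertain.

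SLC1A1, the epithelial and neuronal glutamate transporter, had log2 values of 7.24 and 7.32 in PC-3 and of 7.04 and 7.03 in PC-3-BM. Both PC-3-BM arrays lay below both PC-3 arrays. The difference was -0.25 (SE 0.07, 95% interval -0.43 to -0.06, limma, adjusted p = 0.0706) and did not pass over all probe sets, whereas it passed when only probe sets with 1 gene symbol were tested (limma, adjusted p = 0.0283) or only those with a mean above 5 (limma, adjusted p = 0.046). SLC1A2, the other astrocyte transporter, had log2 values of 4.59 and 4.52 in PC-3 and of 4.78 and 4.76 in PC-3-BM. All 4 lay below the lower quartile of all values, so its difference of 0.22 (SE 0.07, 95% interval 0.04 to 0.39, limma, adjusted p = 0.0917) says little about the transcript. It too passed among probe sets with 1 gene symbol (limma, adjusted p = 0.0423). Of the 3 glutamate transporters among the measured members, SLC1A3 alone differed by more than 1 log2 unit, and the intervals of SLC1A1 and SLC1A2 reach no further than -0.43 and 0.39.

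SLC1A5, the glutamine exchanger ASCT2, had log2 values of 10.84 and 10.82 in PC-3 and of 11.45 and 11.33 in PC-3-BM. The PC-3-BM arrays were both higher, and they differed more from each other than the PC-3 arrays did. SLC1A5 rose by 0.56 (SE 0.08, 95% interval 0.36 to 0.76, limma, adjusted p = 0.00978), 1.48-fold. SLC1A4, the exchanger ASCT1 that carries alanine, serine and cysteine, had log2 values of 8.15 and 8.20 in PC-3 and of 8.68 and 8.65 in PC-3-BM. Its lines did not overlap either, and it rose by 0.49 (SE 0.07, 95% interval 0.31 to 0.67, limma, adjusted p = 0.0108), 1.40-fold. Neither call was stable when an array was left out, although the differences kept their sign. SLC1A5 stood at 0.57 without PC-3 array 1, 0.55 without PC-3 array 2 and 0.50 without PC-3-BM array 1, with limma adjusted p of 0.064, 0.0705 and 0.0525, and it passed at 0.62 without PC-3-BM array 2 (limma, adjusted p = 0.0354). SLC1A4 missed the threshold in all 4 cases, at 0.46 without PC-3 array 1, 0.51 without PC-3 array 2, 0.47 without PC-3-BM array 1 and 0.50 without PC-3-BM array 2, with limma adjusted p of 0.0717, 0.0638, 0.0603 and 0.0503.

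A second probe set annotated to SLC1A5 alone was dimmer and less precise. It gave 6.98 and 6.76 in PC-3 and 7.24 and 7.05 in PC-3-BM. The difference had the same sign and a smaller size, 0.27 (SE 0.11, 95% interval -0.02 to 0.57, limma, adjusted p = 0.159). The mean of both probe sets gave 0.42 (SE 0.09, limma, adjusted p = 0.0331) and passed.

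GLUL, the gene of glutamine synthetase, had log2 values of 10.48 and 10.44 in PC-3 and of 10.45 and 10.52 in PC-3-BM. The arrays of the lines overlapped, and the difference was 0.03 (SE 0.07, 95% interval -0.16 to 0.21, limma, adjusted p = 0.839). The probe set chosen by brightness may not lie in the gene itself. Probe set numbers on this platform run along the chromosomes, and 96.9% of named probe sets had both numbered neighbours on their own gene's chromosome, against 1.29% with neither. The brightest GLUL probe set was among the latter, since GLUL lies on chromosome 1 and all 6 of the nearest named probe sets, GALT, IL11RA, PHF24 and DNAJB5 among them, belong to genes of chromosome 9. The GLUL pseudogene GLULP4 lies in the same stretch of chromosome 9, next before DNAJB5 among the protein-coding genes there, and signal from near-identical copies cannot be assigned to one or the other. The second GLUL probe set sat among chromosome 1 genes and gave 8.40 and 8.34 in PC-3 and 8.45 and 8.47 in PC-3-BM. Its lines did not overlap, and its difference of 0.09 (SE 0.07, 95% interval -0.09 to 0.27, limma, adjusted p = 0.404) did not pass either. The 95% intervals of both probe sets together ran from -0.16 to 0.27.

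**Figure D2:**
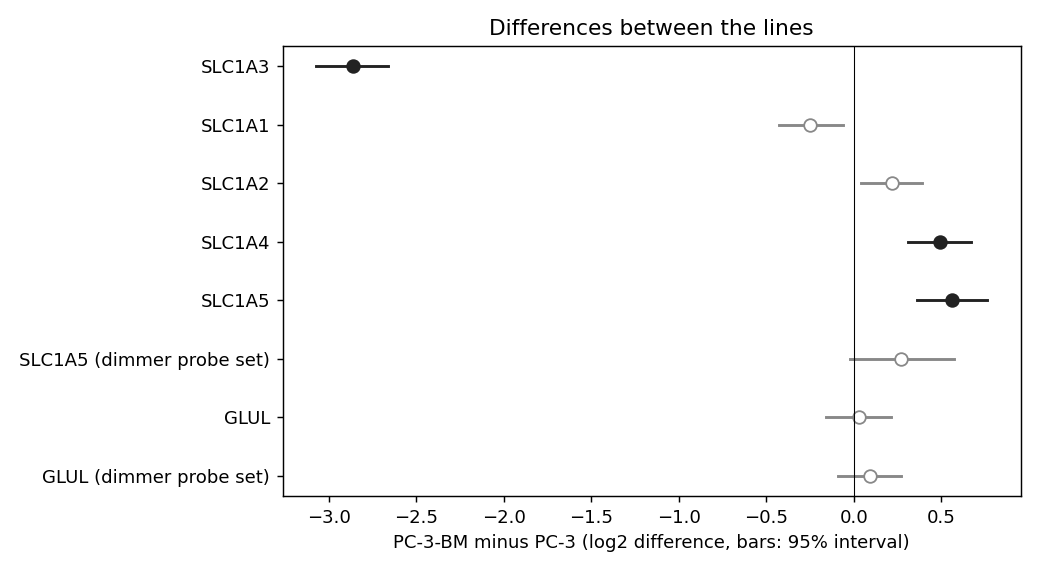
Difference between the lines (PC-3-BM minus PC-3, log2, horizontal axis) for each probe set annotated to a single member, as points with 95% intervals, filled at an adjusted p below 0.05. SLC1A3 stands at -2.86, SLC1A4 and SLC1A5 at 0.49 and 0.56, and the dimmer probe sets of SLC1A5 and GLUL at 0.27 and 0.09.

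Promoter sequence was examined because SLC1A4 and SLC1A5 rose together. RefSeq windows on GRCh38.p14, running from 250 bases before to 50 after an annotated start, were at hand for 5 of the 6 measured members, with 3 windows for SLC1A3, 2 for SLC1A4, 3 for SLC1A5, 2 for GLUL and 1 for SLC1A1. They were searched on both strands for TGATGCAA, a form of the C/EBP-ATF response element through which amino acid shortage is known to act, and for the E-box CACGTG. The end of CACGTG can overlap the first letters of TGATGCAA. Both motifs were picked with the values and the sequences known. TGATGCAA stood in 1 window each of SLC1A3, SLC1A4 and SLC1A5 and in none of GLUL or SLC1A1, and it occurs in 0.866% of all 35116 windows. The windows of a gene lie at separate annotated starts, and which of these starts the cells use was not tested. CACGTG occurred in 1 other window of SLC1A5 and in 7.26% of all windows. The 3 windows with TGATGCAA are given in the direction of the gene, from 250 bases before the start to 10 bases past it, with the motif in capitals. Counted along the gene, the stretch in capitals begins 220 bases before the start in SLC1A3 (chr5:36596338-36596597, plus strand) and 97 before in SLC1A5 (chr19:46784805-46785064, minus strand). In SLC1A4 (chr2:64989149-64989408, plus strand) the stretch begins 7 before the start and holds TGATGCAA on the opposite strand.
SLC1A3: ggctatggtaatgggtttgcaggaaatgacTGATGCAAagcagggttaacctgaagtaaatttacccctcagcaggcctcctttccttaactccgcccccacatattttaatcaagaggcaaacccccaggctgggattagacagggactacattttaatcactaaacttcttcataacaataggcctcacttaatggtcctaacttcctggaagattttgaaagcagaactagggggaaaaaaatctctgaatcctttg
SLC1A5: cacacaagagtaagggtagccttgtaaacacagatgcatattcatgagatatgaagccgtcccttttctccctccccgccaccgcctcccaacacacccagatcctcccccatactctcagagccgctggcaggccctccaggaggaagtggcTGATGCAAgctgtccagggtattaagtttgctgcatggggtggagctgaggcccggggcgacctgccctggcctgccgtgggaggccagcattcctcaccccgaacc
SLC1A4: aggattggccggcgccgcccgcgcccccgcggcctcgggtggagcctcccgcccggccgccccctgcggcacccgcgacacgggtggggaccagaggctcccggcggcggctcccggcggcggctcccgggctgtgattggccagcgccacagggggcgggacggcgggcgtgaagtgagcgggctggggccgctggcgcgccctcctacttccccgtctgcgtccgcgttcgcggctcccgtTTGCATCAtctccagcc

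The motif was thus shared by the member that fell and by both that rose. Of 138 measured genes with TGATGCAA in a window 17.4% rose and 13.8% fell, and of all 14239 measured genes with a window 15.5% rose and 15.3% fell. These shares lie close together, but the 138 genes include SLC1A3, SLC1A4 and SLC1A5 themselves. Only this exact string was searched, so genes with other forms of the element, or with one outside the window, count as lacking it. Whether the element acts in these cells was not tested.

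The genes beside SLC1A3 on chromosome 5 did not share its fall. The 5 nearest measured genes on each side had a median difference of 0.23, between -0.29 and 0.95. Of these 10, 4 rose and 1 fell, against 14.8% in each direction over all named genes. The nearest on either side were RANBP3L, with a difference of 0.22 (limma, adjusted p = 0.128), and NIPBL, the cohesin loader, which rose by 0.39. CPLANE1 rose by 0.55, LMBRD2 by 0.95 and WDR70 by 0.29, while SKP2, an F-box protein of the cell cycle, fell by 0.29. LMBRD2 kept its call without any 1 array, CPLANE1 kept it in 1 of 4 such fits, and NIPBL, WDR70 and SKP2 in 0 of 4. The neighbours of the other measured members had medians between -0.15 and 0.04, with 0 or 1 that rose and 1 or 2 that fell among 10 for each. Beside SLC1A2 on chromosome 11 lay PAMR1, which rose by 2.65 (SE 0.07, limma, adjusted p = 0.000833).

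**Figure D3:**
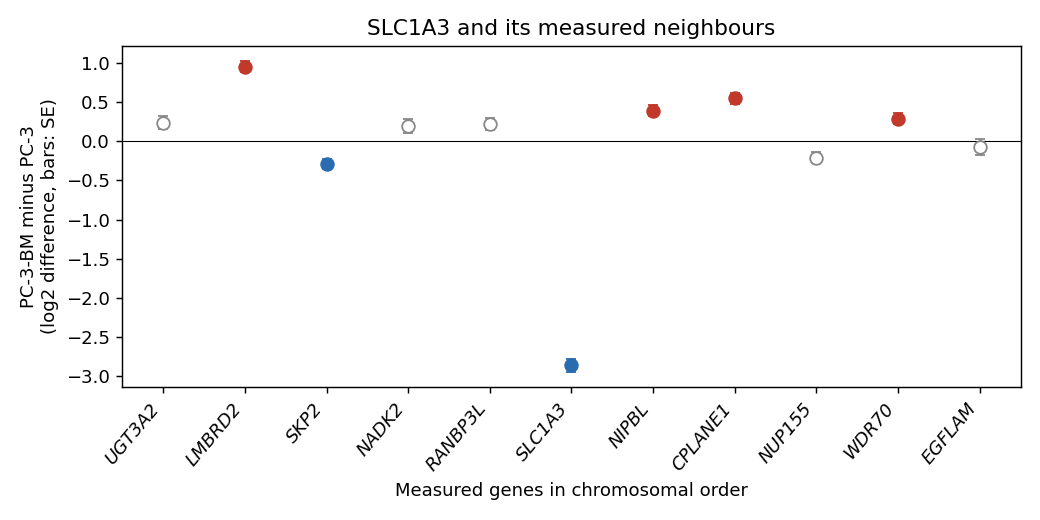
Difference between the lines (PC-3-BM minus PC-3, log2, vertical axis, bars SE) for SLC1A3 and the 5 nearest measured genes on each side in chromosomal order (horizontal axis), red where a gene rose, blue where it fell and open where it did not pass. SLC1A3 at -2.86 stands apart from neighbours between -0.29 and 0.95.

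The profiles most like that of SLC1A3 over the 4 arrays, by Euclidean distance of mean-centred log2 values, were those of GLMP, a lysosomal membrane protein (distance 0.08), GPC4, a glypican (0.27), and SPIN4 (0.29). GLMP had 8.66 and 8.83 in PC-3 and 5.91 and 5.99 in PC-3-BM, and its difference was -2.79. With 4 arrays such likeness states little more than a fall of the same size.

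Of 20 other carriers of glutamate, glutamine and their exchange partners 4 rose, 3 fell and 13 did not pass, with a median difference of 0.08. As shares of the list these counts lie near the 14.8% higher and 14.8% lower over all named genes, so the values below are those of single carriers. SLC7A11, which exports glutamate in exchange for cystine (system xc-), had log2 values of 10.13 and 10.11 in PC-3 and of 11.04 and 11.03 in PC-3-BM. The arrays of each line nearly coincided, and SLC7A11 rose by 0.91 (SE 0.07, limma, adjusted p = 0.00271), 1.88-fold. SLC7A6, an exchanger of basic amino acids and glutamine, rose by 0.52, the lysosomal glutamine carrier SLC38A7 by 0.41 and SLC7A5 (LAT1), which can trade glutamine for leucine, by 0.37 (limma, adjusted p = 0.013, 0.0255 and 0.0211). SLC3A2, the heavy chain shared by SLC7A5 and SLC7A11, differed by 0.21 (SE 0.07) and did not pass. Of the carriers that rose, SLC7A11 alone kept its call when arrays were left out, in 4 of 4 fits, and the others kept theirs in 0 of 4.

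The largest fall in that list was that of SLC7A8 (LAT2), a further neutral amino acid exchanger, which had 7.33 and 7.40 in PC-3 and 5.71 and 5.59 in PC-3-BM. It fell by 1.72 (SE 0.08, limma, adjusted p = 0.00135), with no overlap between the lines. SLC25A12, a mitochondrial aspartate-glutamate carrier, fell by 0.70 and SLC38A1, a sodium-coupled glutamine importer, fell by 0.59 (limma, adjusted p = 0.00587 and 0.00676). SLC25A13, the other aspartate-glutamate carrier in the list, differed by 0.13 (SE 0.08) and did not pass. SLC7A8 kept its call in 4 of 4 fits with an array left out, whereas SLC25A12 and SLC38A1 lost theirs without PC-3 array 1 (limma, adjusted p = 0.0508 and 0.0538). SLC38A2, a close relative of SLC38A1, differed by -0.01 (SE 0.07) and did not pass. Of the remaining SLC1 glutamate transporters, SLC1A6 differed by -0.03 (SE 0.12) and SLC1A7 by 0.27 (SE 0.15), and neither passed.

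Among other enzymes that make or use glutamine and glutamate, 8 of 31 measured genes rose and 7 fell, and the median difference was -0.08. The shares, 25.8% and 22.6%, stand beside 14.8% in each direction over all named genes, and no test set the list apart from them. ASNS, which makes asparagine with nitrogen from glutamine, had 8.72 and 8.89 in PC-3 and 9.74 and 9.51 in PC-3-BM. Both PC-3-BM arrays were higher, and ASNS rose by 0.82 (SE 0.11, limma, adjusted p = 0.00996), 1.76-fold. GFPT1, the entry enzyme of hexosamine synthesis, rose by 0.60 (limma, adjusted p = 0.00861). OAT and ALDH18A1, which link glutamate to ornithine and proline, rose by 0.49 and 0.48 (limma, adjusted p = 0.0122 and 0.0126).

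The enzymes that fell were led by ALDH5A1 and CAD. CAD, which starts pyrimidine synthesis, had 9.24 and 9.31 in PC-3 and 8.45 and 8.51 in PC-3-BM, and it fell by 0.79 (SE 0.07, limma, adjusted p = 0.00412). The CTP synthases CTPS1 and CTPS2 fell by 0.62 each (limma, adjusted p = 0.00564 and 0.00756). ALDH5A1, which feeds succinate from the GABA route of glutamate breakdown into the citric acid cycle, fell by 0.88 (SE 0.10, limma, adjusted p = 0.007). GAD1 and ABAT, which act earlier in that route, rose by 0.47 and 0.30 (limma, adjusted p = 0.019 and 0.0357). Both were named after their values were seen, and their means in both lines lay below the lowest array median of 6.66. The other enzymes that rose were GOT1, by 0.46, and GCLC, by 0.42 (limma, adjusted p = 0.0474 and 0.0446). GAD2 differed by -0.08 and did not pass. The other 3 that fell were PPAT and PFAS of purine synthesis, both at -0.53, and the glutaminyl-tRNA synthetase QARS1, at -0.32. Leaving out an array lowered these counts. Enzymes that rose numbered 0 without PC-3 array 1, 0 without PC-3 array 2, 2 without PC-3-BM array 1 and 4 without PC-3-BM array 2. Enzymes that fell numbered 2 without PC-3 array 2 and 4 in each of the other fits. CAD and CTPS1 kept their calls in 4 of 4 such fits, ALDH5A1 and CTPS2 in 3, ASNS and GFPT1 in 2, ALDH18A1 in 1, and OAT, PPAT, PFAS and QARS1 in 0.

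Most glutamate receptor subunits did not pass the test. Of 24 measured subunits 1 rose and 2 fell, 4.17% and 8.33% of the list against 14.8% in each direction over all named genes, with a median difference of -0.10, and 9 of the 24 lay below the lower quartile of all values in both lines. The kainate receptor subunit GRIK2 had 7.39 and 7.36 in PC-3 and 9.24 and 9.19 in PC-3-BM. This was the largest difference in the 3 lists, a 3.58-fold rise of 1.84 (SE 0.07, limma, adjusted p = 0.001). The AMPA receptor subunit GRIA3 had 6.36 and 6.25 in PC-3 and 5.11 and 5.40 in PC-3-BM and fell by 1.05 (SE 0.12, limma, adjusted p = 0.00627). The metabotropic receptor GRM4 fell by 0.32 (SE 0.07, limma, adjusted p = 0.0292). GRIK2 kept its call in 4 of 4 fits with an array left out and GRM4 in 0, and GRIA3 lost its call without PC-3 array 1 (limma, adjusted p = 0.0535).

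**Figure D4:**
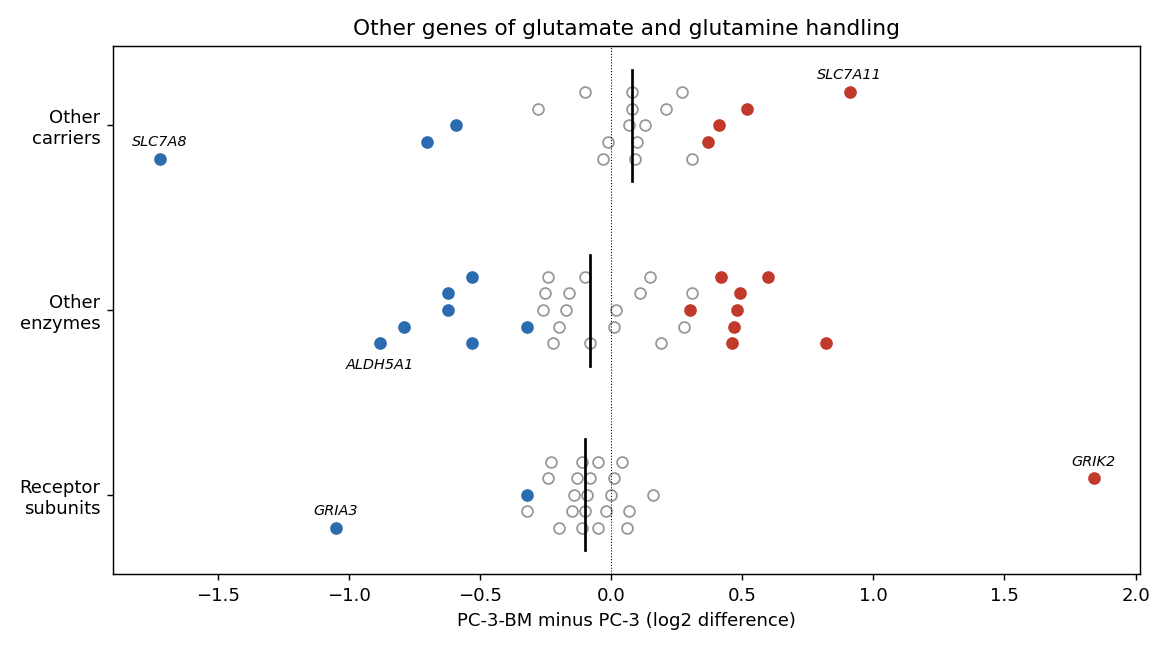
Difference between the lines (PC-3-BM minus PC-3, log2, horizontal axis) for the measured genes of 3 lists (vertical axis), as circles filled red where a gene rose, filled blue where it fell and open where it did not pass, with list medians as black bars. Carriers and enzymes spread to both sides, with SLC7A8 at -1.72 and SLC7A11 at 0.91, and among receptor subunits GRIK2 lies apart at 1.84.

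Markers of other cell types were set beside these results. Per the study's methods, cells harvested from bone were put under geneticin, grown out in dishes and sorted by their fluorescence before reinjection. What these steps left of host cells was not tested. All 4 arrays had high signal for the epithelial keratins KRT18 and KRT19, above 10 on the log2 scale. KRT8 had means of 10.97 in PC-3 and 8.94 in PC-3-BM, and EPCAM of 6.9 and 5.6. All 4 epithelial markers fell in PC-3-BM, with KRT8 at -2.03 and EPCAM at -1.30, although KRT18 and KRT19 lost their calls without any 1 array. Of the prostate luminal markers, KLK2 and KLK3 were measured and neither passed. Of 7 measured blood and marrow markers 1 rose, CD68, by 0.72 (SE 0.07, limma, adjusted p = 0.00519). CD68 kept its call without any 1 array, with the difference between 0.67 and 0.78. Of 4 endothelial markers 1 rose, PECAM1, by 0.45, a call lost without any 1 array. None of 5 osteoblast and stromal or 3 astrocyte markers passed in limma. The summed signal of the blood markers was 10.83 on both PC-3 arrays and 11.43 to 11.53 on the PC-3-BM arrays, and it was carried by CD68, while PTPRC, LYZ and CD3E lay below 5.02 in both lines. The summed signal of the astrocyte markers was 7.19 to 7.29 in PC-3 and 6.98 to 7.21 in PC-3-BM. AQP4 and S100B lay below 5.02 in both lines, while GFAP had means of 6.73 in PC-3 and 6.53 in PC-3-BM. Host cells would be of mouse, and the arrays are made for human genes, so these markers may not register them. CD68 had 10.66 on both arrays of the parental PC-3. The part of host cells or of other cell types in the differences was not tested. Fewer cells of a type and less RNA per cell cannot be told apart in bulk RNA.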

How the data were processed

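Total RNA of 4 samples, 2 labelled PC-3 and 2 labelled PC-3-BM, was hybridised by the authors to Affymetrix Human Gene 1.0 ST arrays. The deposited log2 values are the authors' robust multichip average (RMA) of each probe set, which corrects background, equalises array distributions and assumes that most genes keep their level. Per the processing notes of the submitters, limma 3.24 and R 3.2 were used. Array medians ran from 6.66 to 6.72, and correlations were 0.996 to 0.997 within a line and 0.983 to 0.985 between lines. The number of arrays limits the precision.

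Probe sets were named from the platform annotation, which gave 19460 of them 1 symbol, 1754 several and 12083 none, and 19429 of the first matched the RefSeq gene table of GRCh38.p14 by gene identifier. The difference PC-3-BM minus PC-3 was fitted in limma 3.58.1 under R 4.3.3 (linear model, empirical Bayes, Benjamini-Hochberg over all probe sets), the kind of model the study's methods name, and the fit was tested on simulated data. An exact permutation test of 2 against 2 arrays cannot go below p = 0.333. The members and lists were chosen with earlier results of these data known. Genes named are all measured members, up to 4 per direction of each pathway list with the largest called differences, called neighbours and the 3 profiles nearest to SLC1A3; others were chosen after their values were seen. Of the lists, 20 of 20 carriers, 31 of 37 enzymes and 24 of 26 receptor subunits were measured.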

Additional observations from a re-analysis of the deposited data

How the results depend on the processing

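The fall of SLC1A3 kept its direction and its side of the threshold in all 9 alternatives run, and GLUL did not pass in any of 11. No called difference changed sign among the members and the other named genes followed through these fits. Leaving out 1 array at a time, SLC1A4 ranged from 0.46 to 0.51 and SLC1A5 from 0.50 to 0.62, SLC1A4 losing its call in 4 cases and SLC1A5 in 3. In those fits the lone array is assumed to vary like the other line, and the calls over all probe sets dropped from 7717 to between 2238 and 3854. Counts then ranged from 0 to 1 for members that rose, 1 to 1 for carriers that rose, 1 to 3 for carriers that fell, 0 to 4 for enzymes that rose, 2 to 4 for enzymes that fell and 0 to 1 for receptor subunits that fell. With only probe sets of 1 symbol tested, SLC1A1 at -0.25 and SLC1A2 at 0.22 passed, 2 members and 5 receptor subunits fell. That setting called 19.0% of its probe sets higher and 20.8% lower, against 11.6% each over all probe sets. With only probe sets of a mean above 5 tested, SLC1A1 at -0.25 passed and 2 members fell, and SLC1A2 gave no value. Fewer probe sets entered the adjustment in both settings. The spread shared between probe sets was also estimated anew from them, so the p-values themselves changed. The dimmer SLC1A5 probe set, an alternative added after the data were seen, gave 0.27 and did not pass, while the mean of both SLC1A5 probe sets gave 0.42 and passed. Past the study's stricter limits were 17 probe sets, against 84 with centred arrays, 83 with probe sets of 1 symbol, 85 with a mean above 5, 99 with a mean-variance trend, and 0 with the replicate block and with each array left out.

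Array numbers are shared by the lines, and same-numbered arrays did not deviate together (correlation -0.0174 across probe sets), so the numbers were taken as names. With the replicate block 5 enzymes rose and 1 receptor subunit fell, and no call of a member changed. Centring arrays on their medians changed the balance over all probe sets to 4212 higher and 3254 lower from 3854 and 3863, and changed no call of a member. Of the other named genes followed through these fits, QARS1, SKP2 and KRT19 lost their calls under centring. QARS1, GRM4, WDR70, SKP2, KRT18 and KRT19 lost theirs under the block. SLC3A2 passed with only probe sets of 1 symbol and with a mean-variance trend. GAD1, ABAT, GOT1 and GCLC were not followed singly.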
